A study of Mus musculus with 2 samples.

Results

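The expression of motile cilia genes was set side by side in mouse embryonic stem cells that had been given a Tcl1 vector (transformants) and in cells in which Tcl1 was interrupted (disruptants). The genes were chosen by symbol, as Foxj1, Rfx2 and Rfx3 and all genes whose symbol begins with Dnah, Dnai, Dnaaf, Rsph, Tekt or Cfap followed by their numbers, or with Spag6 or Spag16. This gave 59 genes, measured by 111 probes, of 19087 named genes on the array. The symbols beginning with Dnai gave 0 genes, and those genes were not analysed here. The set was drawn up because Foxj1 had stood high in these same data, so the values of the 59 genes are a description and no test is made on them.

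Motile cilia beat by the sliding of doublet microtubules, which is driven by dynein motors in an outer and an inner row of arms. Radial spokes and a central pair of microtubules regulate those motors, and tektins and other proteins stiffen the doublets. Foxj1 is a forkhead transcription factor that switches on the genes of motile cilia, in part together with Rfx factors, which bind a motif called the X-box. Sperm flagella are built from many of the same parts, while the primary cilium of most other cells lacks dynein arms and does not beat.

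Each of 2 arrays carried RNA of a transformant and of a disruptant, labelled with Cy5 and Cy3. The transformants were clones 1 (array 1) and 4 (array 2), made by putting the vector CAG-Tcl1ireszeopA, labelled as an expression vector, into disruptant clone 4. They too lack both intact copies of the gene. The disruptants were clone 4 (array 1), for which no vector is stated, and clone 6 (array 2), stably transfected with CAG-EGFP. In all of them a PGK-puro cassette had replaced parts of exon 2 and exon 3 of Tcl1, and all were cultured with LIF, feeder-free, on gelatin. The dyes were swapped on array 2. Disruptant clone 4 is thus the origin of both transformants, and where clone 6 came from is not stated in the labels. With 2 arrays, each of other clones, a difference that belongs to 1 clone cannot be told apart from a difference due to Tcl1. Neither disruptant is labelled as carrying the transformants' vector, so effects of that vector or of its transfer cannot be told apart from Tcl1 either.

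All values below are log2 ratios of transformant over disruptant, array 1 and then array 2, so a positive value is higher in the transformant. Means are given ± SD, with n = 2 arrays throughout. A ratio carries no level: whether a gene lay above background in these cells is unknown, and a value near 0 can come from a gene that neither RNA held. Fewer cells of a type and less RNA per cell cannot be told apart either. The log10 scale of the deposited values is inferred, and their direction, Cy5 over Cy3, is likely but unstated. With the opposite direction every sign below would turn.

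Over all 30110 entries, which are the named genes and 11023 probes without a single name, limma called 0 (0%) at an adjusted p of 0.05. With 1 residual and 0.861 prior degrees of freedom a call was hardly possible, so this 0 says little about the data. Without adjustment, 947 entries had a limma p under 0.05, and 761 did with a robust variance model, which also called 0. Both counts are below a share of 0.05 of all entries, so no signal is read from them. The arrays ran weakly against each other over all entries (Pearson r = −0.19, across genes). Dyes were swapped together with the clones, so after turning, a dye effect on a gene takes opposite signs on the 2 arrays. Its share in the SDs, p-values and opposite signs given here was not tested. Tcl1 itself had −0.37 and 0.17 on its 1 probe, so it was not higher in the transformant on both arrays, and it bears out neither the labels nor expression of the vector. Whether that probe can read RNA from the vector was not examined, so the value does not show that the vector was silent either. Of 6 markers of embryonic stem cells, Nanog (−0.95 and −1.04), Zfp42 (−1.54 and −1.70), Sox2 (−0.58 and −0.51) and Esrrb (−0.29 and −0.21) lay below 0 and Pou5f1 (0.10 and 0.50) and Utf1 (0.10 and 0.46) above it. Their part in the values of the cilia genes was not tested.

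Foxj1 stood far above the rest of the set. Its 1 probe had deposited log10 ratios of 0.442 on array 1 and −0.452 on the dye-swapped array 2. Turned to transformant over disruptant these are log2 ratios of 1.468 and 1.502, a mean of 1.48 ± 0.02, or 2.80-fold higher in the transformants. Ranked by the smaller of its array values, Foxj1 was number 1 of all 30110 entries, and it was number 4 of the named genes by its mean. The 2 arrays differed by little, but they rest on the same probe, and no other probe carries the symbol.

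Of the 59 genes, 1 (Foxj1) was at least 2-fold higher on both arrays, against 0.0166% of all entries. None (0) was 2-fold lower on both, against 0.193%, and none (0) was 2-fold apart in opposite directions, against 0.664%. Since Foxj1 led to the choice of the set, nothing is read from its count. Apart from Foxj1, the widest values on a single array were 1.53 for Cfap97 and −1.57 for Cfap45 on array 1, and −1.33 for Dnaaf4 and −1.24 for Rsph1 on array 2.

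**Figure D1:**
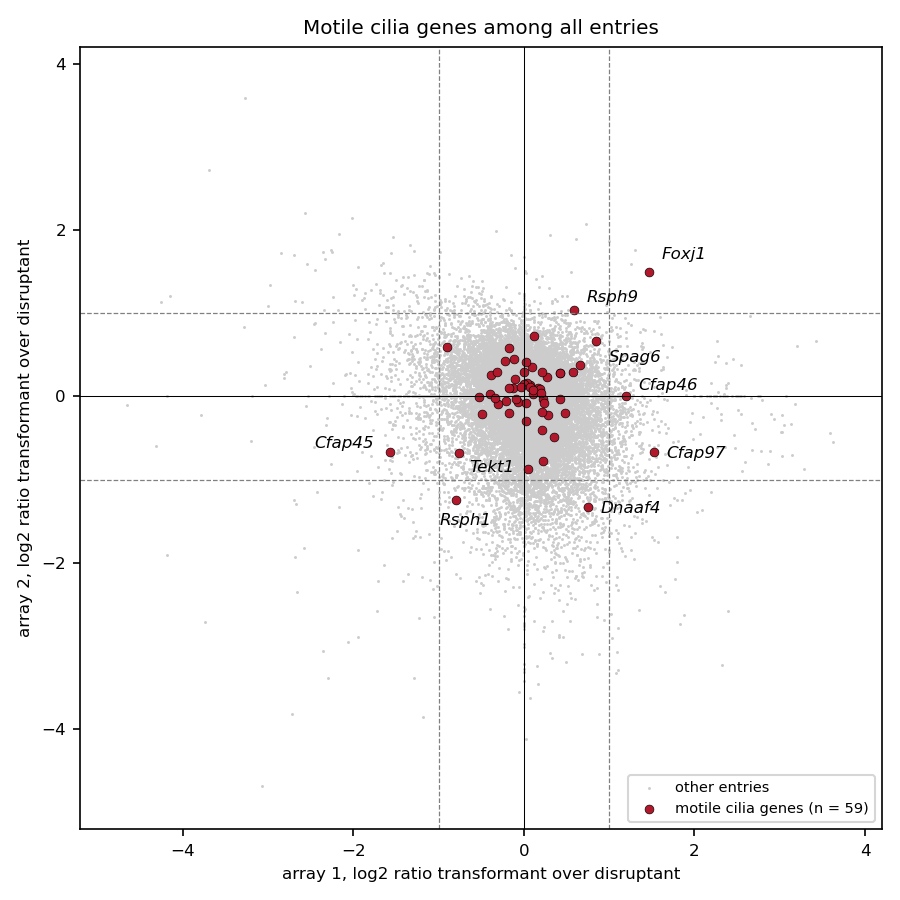
Log2 ratio of transformant over disruptant on array 1 (horizontal axis) and array 2 (vertical axis). Each grey point is an entry and each red point a motile cilia gene, dashed lines mark 2-fold and 3 entries lie outside the axes. Foxj1 is the single red point past both 2-fold lines on the upper right, at 1.468 and 1.502, and most other red points lie in the grey cloud around 0.

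At a limit of 1.5-fold on both arrays, 3 genes were higher in the transformants and 3 lower. The higher ones were Foxj1, Rsph9 and Spag6, against 0.362% of all entries, and the lower ones Rsph1, Tekt1 and Cfap45, against 0.950%. Of these 6 genes, Tekt1 had 2 probes and the other 5 had 1 each. Among genes with 1 probe, 46 of 10821 named genes were 1.5-fold higher on both arrays and 162 were lower. Averaging over probes narrows a value, and among genes with several probes the counts were 13 higher and 70 lower of 8266.

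The structural genes furthest from 0 therefore lay on both sides of it. Rsph9, a protein of the radial spoke head, had 0.59 and 1.04 (mean 0.81 ± 0.32), and Rsph1, of the same spoke head, had −0.79 and −1.24 (mean −1.02 ± 0.32). These genes are both on chromosome 17, and they differed in direction on both arrays. Spag6, of the central apparatus, had 0.85 and 0.66 (mean 0.76 ± 0.13). Tekt1, a filament protein of the doublet wall, had −0.77 and −0.68 (mean −0.73 ± 0.06), and its probes had −0.84 and −0.48 for 1 and −0.69 and −0.89 for the other. Both probes of Tekt1 thus lay below 0 on both arrays. Cfap45, a protein on the inner wall of the doublet, had −1.57 and −0.66 (mean −1.12 ± 0.64).

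The promoters of 4 of these 6 genes are shown because they are structural genes at least 1.5-fold the same way on both arrays, in both directions, and because Foxj1 and Rfx factors act on cilia genes through such regions. Rsph1, which lay further below 0 than Tekt1 by the smaller of its array values, and Foxj1 are not shown. Each is the stretch of 250 bases before the gene's start, from RefSeq's GRCm38.p6, read 5′ to 3′ on the gene's strand. Spag6 lies at chr2:18698772-18699021 (plus strand), Rsph9 at chr17:46144201-46144450 (minus strand), Tekt1 at chr11:72361883-72362132 (minus strand, the upstream one of its 2 starts) and Cfap45 at chr1:172520880-172521129 (plus strand). Capitals mark a GTTGCC arm of the X-box on either strand, and in Cfap45 the match GTTGCTATGGTAAC to a wider X-box pattern.
Rsph9: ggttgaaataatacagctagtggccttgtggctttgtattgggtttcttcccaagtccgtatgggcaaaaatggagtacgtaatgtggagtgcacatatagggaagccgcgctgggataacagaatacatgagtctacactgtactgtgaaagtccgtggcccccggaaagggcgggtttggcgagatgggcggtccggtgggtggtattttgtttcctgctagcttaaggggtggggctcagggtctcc
Spag6: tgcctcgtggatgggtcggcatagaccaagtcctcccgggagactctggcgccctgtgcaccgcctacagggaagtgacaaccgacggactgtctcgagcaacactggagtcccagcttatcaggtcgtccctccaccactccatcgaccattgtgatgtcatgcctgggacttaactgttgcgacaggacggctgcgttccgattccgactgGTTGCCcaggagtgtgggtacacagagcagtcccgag
Tekt1: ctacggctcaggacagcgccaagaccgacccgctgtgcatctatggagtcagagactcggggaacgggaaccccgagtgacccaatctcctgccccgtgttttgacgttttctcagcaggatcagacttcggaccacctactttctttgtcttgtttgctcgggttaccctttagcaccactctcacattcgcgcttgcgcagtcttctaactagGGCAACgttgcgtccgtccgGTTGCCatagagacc
Cfap45: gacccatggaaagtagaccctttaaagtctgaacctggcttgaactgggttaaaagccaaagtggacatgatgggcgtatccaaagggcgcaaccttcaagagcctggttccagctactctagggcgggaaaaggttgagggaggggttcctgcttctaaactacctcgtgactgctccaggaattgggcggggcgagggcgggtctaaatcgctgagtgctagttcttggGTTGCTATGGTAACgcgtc
Spag6 has its arm 37 to 32 bases before the start. Tekt1 has an arm on each strand, at 35 to 30 and at 15 to 10 bases before the start, and its other start holds none of the motifs searched. Cfap45 has its match 19 to 6 bases before the start. In the window of Rsph9 none of these letters was found. The genes with a ratio above 0 and those with a ratio below 0 each include a window with such a match.

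Across the set, 49 of the 59 genes had at least 1 promoter window in the table. The arm GTTGCC, searched on both strands, was in a window of 18 of them (36.7%), against 11.7% of the 15306 named genes of the array with a window. The whole palindrome GTTNCCNNGGNAAC was in 3 (6.12%) against 0.490%, namely Cfap20dc, Cfap298 and Dnaaf6. The wider pattern GTTNCNNNGGNAAC, chosen after the window of Cfap45 had been read and overlapping the palindrome, was in 7 (14.3%) against 0.862%. The forkhead core TGTTTAC was in 3 (6.12%), Cfap20, Cfap43 and Dnah17, against 3.19%. The median of the mean ratios was 0.07 over the 18 genes with the GTTGCC arm, against 0.08 over the 31 without it. These are matches of letters and not binding sites.

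Among the partners of Foxj1, the Rfx genes lay near 0. Rfx3, which drives ciliary genes in node, brain and pancreas, had 0.21 and 0.05, as the average of 4 probes whose means ran from −0.08 to 0.31. Rfx2, which acts in spermatids and in ciliated epithelia, had −0.34 and −0.02 over 2 probes. Neither gene was thus past 1.5-fold on either array.

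Foxj1 lay above the other forkhead genes too, which is no separate result, since its high value in these data led to the choice of the set. Of 40 measured, the next highest means were 0.50 for Foxa3 (0.25 and 0.74) and 0.48 for Foxc1 (0.91 and 0.06), and the lowest was −0.74 for Foxo6 (−1.58 and 0.09). Its relatives Foxj2 (0.25 and −0.06) and Foxj3 (0.25 and −0.67) had opposite signs on the arrays.

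The heavy chains of the outer dynein arm, which carry the motor domains, centred on 0. Of 5, only Dnah9 lay above 0 on both arrays (0.19 and 0.09), 0 lay below on both and 4 had opposite signs, with a median of 0.04. Dnah9 is the average of 4 probes with means from −0.12 to 0.47. No single probe of Dnah9 was above 0 on both arrays. For this class and those below, the shares over all entries were 21.0% above, 17.0% below and 53.4% opposite. Dnah5, known along the whole length of human respiratory cilia, had −0.03 and 0.11. Dnah11, the chain that nodal cilia need for setting left and right, had −0.40 and 0.03. The chains of sperm flagella, Dnah8 and Dnah17, had 0.36 and −0.48, and −0.22 and 0.43. The SD between arrays was 0.60 for Dnah8 and 0.46 for Dnah17, wider than their distance from 0.

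The inner arm heavy chains were similar, with a median of −0.04 over 6 genes. Dnah7b alone was above 0 on both arrays (0.22 and 0.29), Dnah2 (−0.49 and −0.22) and Dnah7c (−0.09 and −0.03) were below on both, and Dnah1, Dnah3 and Dnah6 had opposite signs. Dnah7c is the average of 3 probes with means from −0.29 to 0.15. No single probe of Dnah7c was below 0 on both arrays. Dnah7b and Dnah7c are close copies, and probe sequences were not examined here, so their separate values are uncertain. The value of Dnah2 came mainly from 1 of its 5 probes, with −1.71 and −1.13, while the other 4 had means between −0.39 and 0.04 and 2 of them were exactly 0 on both arrays. With the median of its probes in place of the mean, Dnah2 had −0.09 and 0, and with exact zeros left out −0.82 and −0.36.

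Dynein arms are put together in the cytoplasm by assembly factors before they enter the cilium. Of 6 such genes, Dnaaf2, also called kintoun, was the highest with 0.58 and 0.30 (mean 0.44 ± 0.20), and both its probes had means above 0. Dnaaf1 had 0.10 and 0.36. Dnaaf5 had −0.17 and 0.10, and the related Dnaaf6 and Dnaaf6b had −0.17 and −0.20, and −0.07 and −0.07. Dnaaf4 differed most between the arrays, with 0.75 and −1.33 on 1 probe. The median of the 6 was −0.05, and 2 were above and 2 below 0 on both arrays.

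The other radial spoke genes lay between the values of Rsph9 and Rsph1. Rsph3a, of the stalk, had 0.11 and 0.08 over 3 probes. Rsph4a, of the spoke head, had −0.30 and −0.09, Rsph14 −0.52 and −0.01, and Rsph6a, the counterpart of Rsph4a in sperm, −0.17 and 0.58. Their order was thus not the same on the arrays. Of the spoke head genes Rsph1, Rsph4a and Rsph9, only Rsph9 was above 0.

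Of the central apparatus genes, Spag6l, a close copy of Spag6, had 0.07 and 0.11, and Spag16 had 0.24 and −0.07. The probes of Spag6 and Spag6l were not compared in sequence, so it is uncertain how far each reads its own gene. Of the tektins, Tekt2 had 0.03 and 0.42 and Tekt5, a tektin of sperm, −0.32 and 0.29. Tekt1 was therefore the only tektin below 0 on both arrays.

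**Figure D2:**
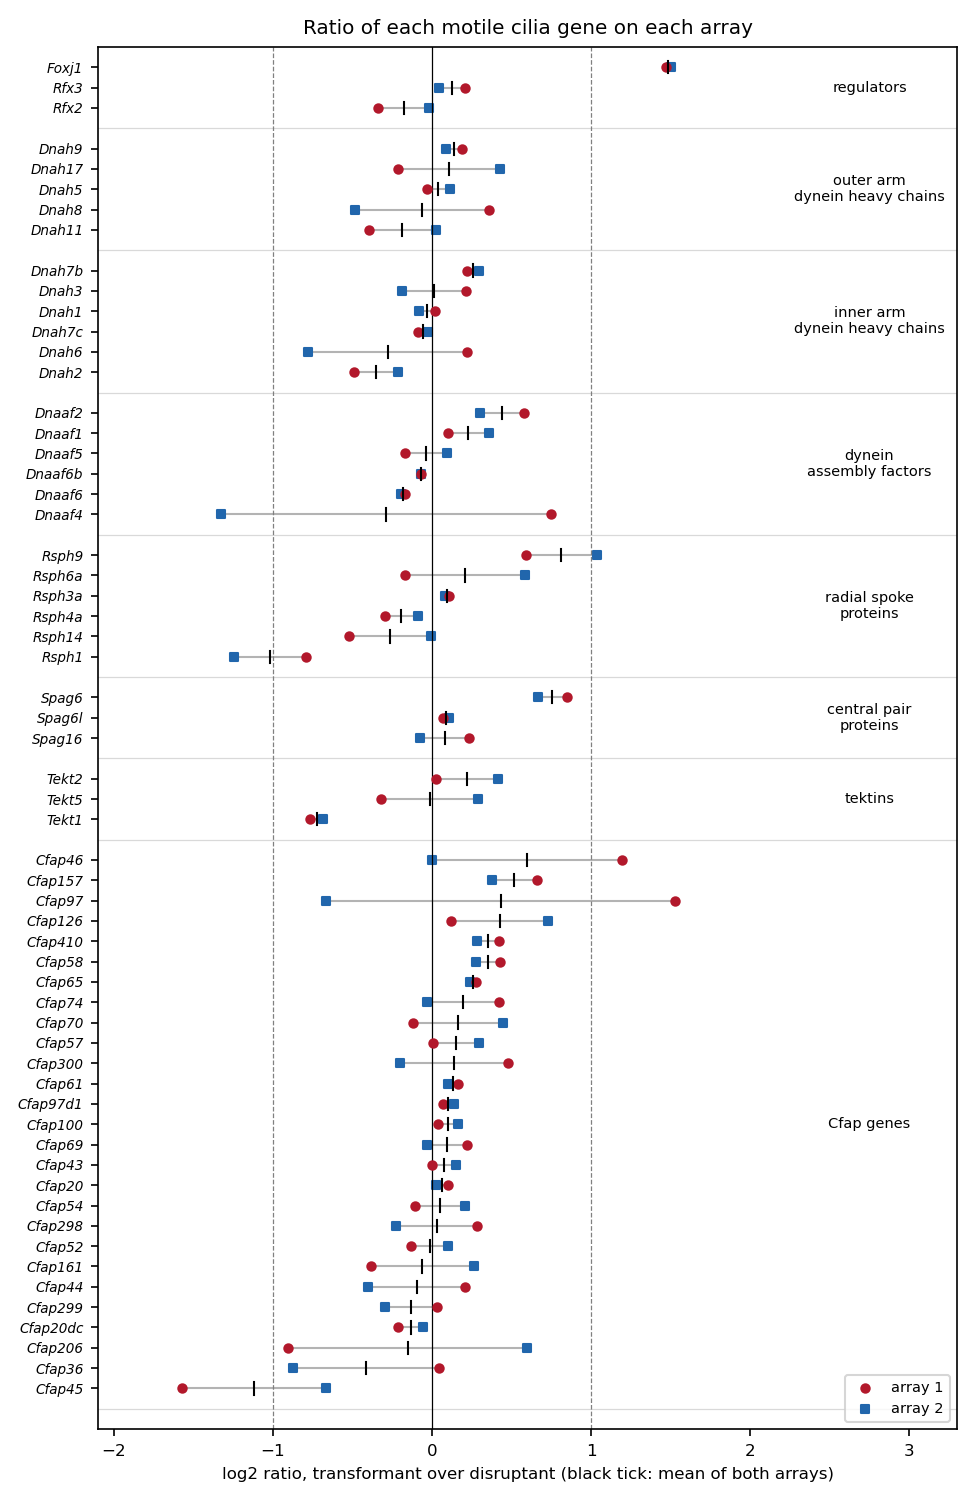
Log2 ratio of transformant over disruptant (horizontal axis) for each of the 59 genes, grouped by role and ordered by mean. Red circles are array 1, blue squares array 2, and black ticks the mean of both. Foxj1 heads the plot with its 2 values at 1.468 and 1.502, while Rsph1, Tekt1 and Cfap45 lie to the left of 0 on both arrays and long bars such as those of Dnaaf4 and Cfap97 mark genes whose arrays disagreed.

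The Cfap genes, named for proteins found with cilia and flagella, made up 27 of the 59. Of these, 10 were above 0 on both arrays, 2 below on both (Cfap45 and Cfap20dc), 14 had opposite signs, and 1, Cfap46, was exactly 0 on array 2. Over all entries 21.0% were above, 17.0% below and 53.4% opposite. Their median was 0.10 on each array. After Cfap46 (1.19 and 0), the highest mean was that of Cfap157 with 0.66 and 0.38, a protein of the basal body that sperm need in mice. Cfap126, also called Flattop and a known target of Foxj1 in mice, had 0.12 and 0.73. Cfap410 had 0.42 and 0.29, Cfap58 0.43 and 0.28, and Cfap65 0.27 and 0.24. The value of Cfap65 is the average of 3 probes with means from −0.23 to 0.59. None of these 6 genes was 1.5-fold higher on both arrays, beside 0.362% of all entries.

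The value of Cfap46 on array 1 came from 1 probe with 2.39, which was exactly 0 on array 2, and its other probe was exactly 0 on both. Cfap46 belongs to the central apparatus, as do Cfap54 (−0.11 and 0.21) and Cfap74 (0.42 and −0.03). Cfap298 and Cfap300, which take part in dynein assembly, had 0.28 and −0.23, and 0.48 and −0.20. Cfap206, of the radial spoke base, had −0.90 and 0.60, and Cfap97 1.53 and −0.66. Cfap36 had 0.05 and −0.88, with its 2 probes at −2.096 and 0.342 on array 2. For these genes the arrays or the probes disagreed by more than the distance of the mean from 0. Cfap52, found like Cfap45 inside the doublet, had −0.13 and 0.10, and Cfap20 had 0.10 and 0.02. Cfap161, also found there, had −0.38 and 0.26. The Cfap genes not named here had means between −0.13 and 0.16.

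Over all 59 genes, 21 were above 0 on both arrays, 11 below on both and 26 of opposite sign. In percent these are 35.6, 18.6 and 44.1, beside 21.0, 17.0 and 53.4 over all entries. The median of their means was 0.08, and 0.07 without Foxj1, beside 0 over all entries. The middle of the set ran from −0.11 to 0.20 (quartiles), that of all entries from −0.14 to 0.13. Of the 59 genes, 51 had a mean within 0.5 of 0 (86.4%, beside 91.0% of all entries). Across the 59 genes the correlation between the arrays was 0.22 (Pearson) and 0.09 (Spearman), and without Foxj1 it was 0.09 and 0.04. The points share the same 2 arrays, and these values are a description.

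Several probes of a gene often disagreed. Of the 32 genes with more than 1 probe, 15 had probe means on both sides of 0. Of the 111 probes, 30 were above 0 on both arrays, 17 below on both and 55 of opposite sign, and 2 were at least 2-fold the same way on both arrays, that of Foxj1 and 1 of Dnah2. An exact 0 was deposited for 8 probes on array 1 and for 6 on array 2, which is 7.21% and 5.41% of them, beside 6.47% and 6.99% of all spots. All spots include those without a name, so the shares are not of like probes. After averaging, which can hide the 0 of a single probe, 602 of 19087 named genes had a 0 on an array, against 2575 of all 30110 entries.

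**Figure D3:**
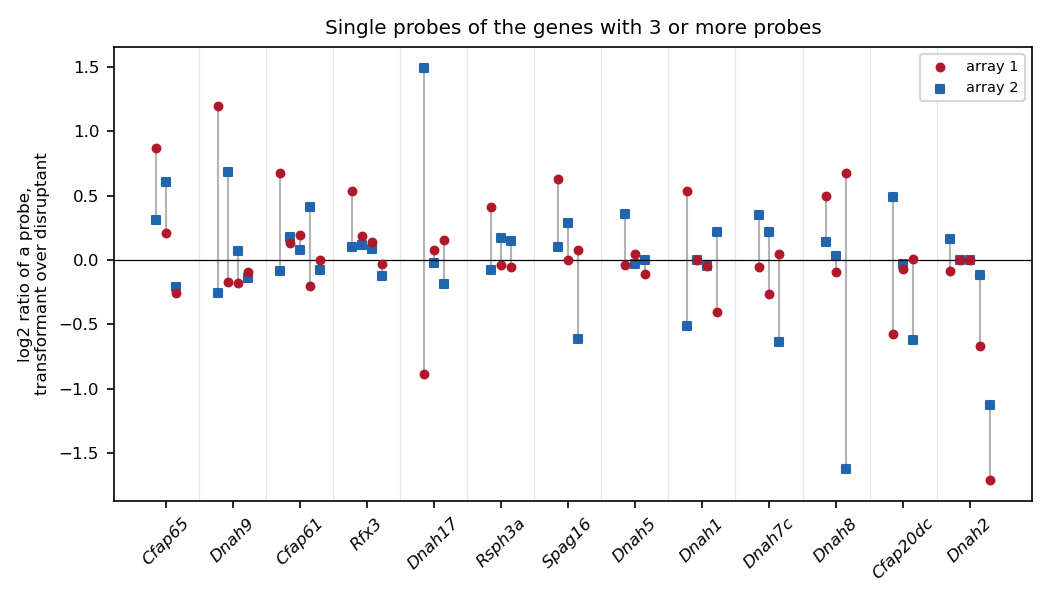
Log2 ratio of transformant over disruptant for each single probe (vertical axis) of the 13 genes with 3 or more probes (horizontal axis), 46 probes in all. Red circles are array 1 and blue squares array 2, joined for each probe. Probe values run from −1.71 (Dnah2) to 1.49 (Dnah17), and for most genes some probes lie above and some below 0.

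The measured genes from a list of multiciliation regulators and their relatives gave no common direction. Of 21 genes on that list 17 were measured, and Mcidas, Gmnc and Ccno had no value. Of the 17, 6 were above 0 on both arrays, 2 below and 9 of opposite sign, with a median of 0.01. For this list and those below, the shares over all entries were 21.0% above, 17.0% below and 53.4% opposite. Cdc20b, whose locus is active in multiciliated cells, had 0.42 and 0.44, and Rfx7 0.19 and 0.57, the average of 5 probes with means from −0.04 to 1.59. Trp73, a p53 relative that acts upstream of Foxj1, had −0.44 and −0.22, Cep63, a centriole protein, −0.124 and −1.005, and Deup1, which builds the extra centrioles, 0.55 and −0.52. None (0) of the 17 was 1.5-fold the same way on both arrays, beside 0.362% higher and 0.950% lower of all entries. With so few genes a count of 0 says little.

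Axonemal parts that carry other names were measured as 2 further lists. For outer arm docking, light chains and dynein assembly, 7 of 21 genes were above 0 on both arrays and 2 below, with a median of 0.02. The highest were Zmynd10, a dynein assembly factor (0.49 and 0.98), and Ccdc65, of the nexin link (0.49 and 0.40). Ccdc65 is on both lists and was counted in each, so together they hold 46 genes. The lowest were the docking genes Ttc25 (−1.03 and −0.31) and Ccdc114 (−0.71 and −0.22). Nme8, a thioredoxin-like protein of the outer arm, had 1.10 and −2.78.

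For the nexin link, the ruler and the central pair, 8 of 26 genes were above 0 on both arrays and 5 below, with a median of 0.09. Nme5 had 0.68 and 0.20, with probe means of −0.05 and 0.93. Hydin, a large protein of the central pair, had 0.05 and 0.15, and Ccdc40, of the ruler that spaces the arms, had 0.47 and 0.08, while its partner Ccdc39 had −1.19 and 0.57. Tppp3, a tubulin-binding protein found in multiciliated cells, had −2.26 and −0.81 and was the only gene on the 2 lists that was 1.5-fold or more the same way on both arrays. Over all entries 0.362% were 1.5-fold higher and 0.950% lower on both. Iqca had −0.42 and −0.12. Hydin and Ccdc40 were chosen after their values were seen.

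Intraflagellar transport, which all cilia use to carry parts along the axoneme, had 6 of 32 genes above 0 on both arrays and 9 below, with medians of 0.10 on array 1 and −0.19 on array 2. Ift22 had 0.51 and 0.41 and Wdr60 0.34 and 0.36. Ift88, a core subunit without which cilia do not form in mice, had −0.65 and −0.49, Ift52 −0.28 and −0.50, and Wdr35 1.07 and −0.86. None (0) was 1.5-fold the same way on both arrays, beside 0.362% higher and 0.950% lower of all entries.

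Markers of multiciliated cells were also set beside Foxj1. Of 7 measured of 10 on the list, 2 were above 0 on both arrays, Cdc20b and Dynlrb2 (0.57 and 0.15). The probe means of Dynlrb2, −0.06 and 0.78, lay on both sides of 0. Of the others, 1 was below, Ccdc113 (−0.20 and −0.05), and 4 had opposite signs, namely Deup1, Foxn4, Sntn and Tubb4b. The median was 0.01. Deup1, Cdc20b and Foxn4 are also on the list of multiciliation regulators, and Dynlrb2 and Ccdc113 are on the axonemal lists. These genes were counted on each list, so the lists are not independent. Mcidas, Gmnc and Ccno had no value. No level of any marker is known, and their part in the value of Foxj1 was not tested.

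**Figure D4:**
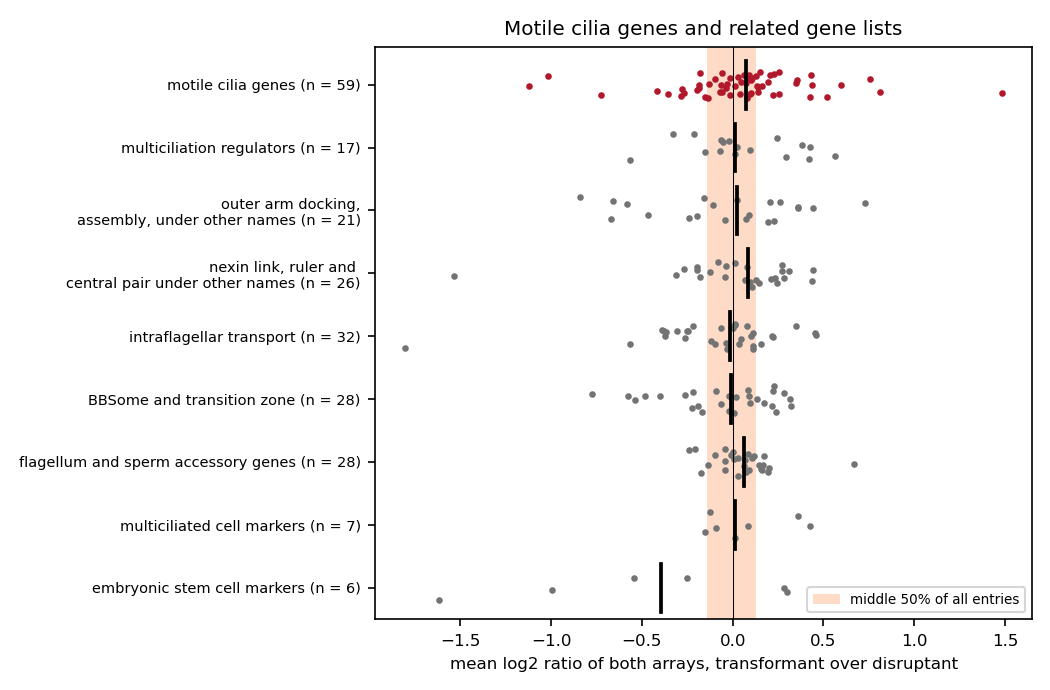
Mean log2 ratio of both arrays, transformant over disruptant (horizontal axis), for the 59 motile cilia genes (red) and for 8 related lists (grey), a point for each gene and a black bar at the median. Genes shared between lists are drawn in each. The shaded band holds the middle 50% of all entries, from −0.14 to 0.13. The medians of the cilia lists lie inside the band, Foxj1 at 1.48 lies alone on the right, and the 6 stem cell markers have a median of −0.40.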

How the data were processed

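The values are log10 ratios of the dye channels, 1 per spot and array, from the table deposited by the authors. Per the submitters' processing notes they come from Agilent Feature Extraction; which version, background correction or dye normalization was used is not stated there. The deposited medians were 0 and 0, and the values ran from −2.69 to 1.39 and from −2.41 to 1.89. The scale is inferred, the centring unknown and the direction unstated. Depth has no counterpart here, and precision is limited by there being only 2 arrays.

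Ratios were multiplied by 3.32 to log2 and array 2 was turned. Probes were named through GEO's platform annotation. Of 43790 spots, 32042 had 1 symbol, 47 several and 11701 none, and 31906 matched RefSeq (GRCm38.p6) by gene number. Unlisted spots below −1 on both arrays (725) were left out as likely controls. Probes of a symbol were averaged. Entries were fitted with lmFit and eBayes, the mean of both arrays against 0 (limma 3.58.1, R 4.3.3; 1 residual and 0.861 prior degrees of freedom), two-sided, Benjamini-Hochberg adjusted over 30110 entries; the script was tested on simulated data. The labels call the arrays biological replicates. The p-values measure the spread between these 2 clone pairs together with any dye effect, because the dyes were swapped along with the clones.

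The members and lists were chosen with earlier results of these data known. All members could be named. From each further list the text names the 2 genes with the largest smaller value above 0, the 2 below, and the 1 most opposite gene. Genes chosen after their values were seen are marked as such. All measured markers of stem cells and of multiciliated cells are named, and the forkhead genes named, among them Foxj2 and Foxj3, do not follow this rule. Genes of a list that are also members were left out of it. Alternatives were other centring, scaling, probe medians, zeros left out, listed probes alone, array 2 not turned, 1 array, a log2 reading, a robust model, a 1.5-fold limit, each probe by itself and, chosen after seeing the data, control spots kept.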

Additional observations from a re-analysis of the deposited data

How the results depend on the processing

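With each array centred on its named genes, with arrays scaled to the same SD or with exact zeros left out, all 9 results tried kept their direction and stayed within 1.5 times of the count given or within the spread between arrays. With probe medians the median of the 59 genes was 0.0627, beside 0.0756, and with listed probes alone 3 entries in place of 5 were 2-fold higher on both arrays. With array 2 not turned, a reading against the dye labels in which a shared difference cancels by construction, Foxj1 and the median of the 59 genes each came to −0.0166, the 2-fold counts over all entries were 101 higher and 99 lower, and 0 of the 59 genes was 2-fold higher. With each probe by itself, 15 of 32 genes with several probes had probe means on both sides of 0. Read as log2 ratios, Foxj1 had 0.45 and the median was 0.0227. At 1.5-fold, 109 entries were higher and 286 lower, and 3 and 3 of the 59 genes. On 1 array alone, Foxj1 had 1.468 to 1.502 and the median was 0.07 to 0.08. There, 2 to 3 of the 59 genes were 2-fold higher and 1 to 2 lower, 33 to 36 were above 0 and 23 to 25 below, and over all entries 242 to 599 were 2-fold higher and 724 to 1499 lower. These larger counts follow from asking for 1 array in place of both. limma called 0 entries under each alternative that could be fitted, which includes a robust model and control spots kept, with 488 to 2770 at an unadjusted p under 0.05. As a call was hardly possible with 1 residual degree of freedom, the repeated 0 shows little about stability. With 1 array there is no residual degree of freedom and no test. No paired analysis was possible because both RNAs of a replicate share 1 array, so the pairing is already in the ratio. Which probes lay above background was not analysed here.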

Other observations

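Genes of the BBSome and the transition zone, which sort cargo at the base of primary and motile cilia alike, had a median of 0.16 on array 1 and −0.10 on array 2. Of 28 measured, 5 were above 0 on both arrays, 6 below and 15 of opposite sign, and 0 were 1.5-fold the same way on both. Over all entries 21.0% were above, 17.0% below and 53.4% opposite, and 0.362% were 1.5-fold higher and 0.950% lower on both. The highest were Tctn2 (0.27 and 0.37) and B9d2 (0.25 and 0.31), both of the transition zone. The lowest were Tmem231, of the same zone (−0.85 and −0.30), and Bbip1, of the BBSome (−0.21 and −1.34, probe means −1.63 and 0.07). Iqcb1, also known as Nphp5, had 0.92 and −1.10.

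Genes of the sperm flagellum and of late spermatids, which share the axoneme with motile cilia, had medians of −0.04 on array 1 and 0.14 on array 2. Of 28 measured, 4 were above 0 on both arrays, 2 below and 21 of opposite sign, and 0 were 1.5-fold the same way on both. The shares over all entries were 21.0%, 17.0% and 53.4%, with 0.362% 1.5-fold higher and 0.950% lower on both. Tnp1, a transition protein of sperm chromatin, had 0.16 and 0.23, and Ropn1, of the fibrous sheath, 0.15 and 0.14. Slc9c1, a sperm ion exchanger, had −0.34 and −0.14, Akap3 −0.15 and −0.04, and Spata18 0.96 and −0.61. Ldhc, the lactate dehydrogenase of sperm, chosen after its values were seen, had 1.51 on array 1 and −0.18 on array 2.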
